A study of Mus musculus with 21 samples.

Results

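Expression of voltage-gated sodium channel genes was examined in primary mouse cortical neurons: 5 genes for the pore-forming alpha subunits (Scn1a, Scn2a, Scn3a, Scn8a and Scn9a) and 3 genes for the auxiliary beta subunits (Scn2b, Scn3b and Scn4b). These 8 genes were taken by symbol, and all 8 were among the 19399 genes with a mean level in each of 4 sets of cultures. The neurons came from newborn wildtype (WT) pups or from pups carrying a human Tau P301S transgene driven by the prion promoter (Tau). RNA had been sequenced from 21 cultures: 5 Tau and 5 WT cultures with the vehicle DMSO, and 5 Tau and 6 WT cultures with 10 µM AdipoRon, a small-molecule agonist of the adiponectin receptors, each treated for 24 h. According to the growth protocol, all cultures had received 1 µM AraC to remove dividing glia. The Tau neurons were also seeded with pre-formed Tau fibrils on day 7 and then cultured for 18 days. By that account, Tau and WT cultures would differ in both transgene and seeding. Another passage of the study can be read as both genotypes having been seeded, and which holds for the WT cultures was not settled here.

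The measure used was the authors' mean expression of each gene, in log2 CPM (the log2 of read counts scaled to a common library size), over the cultures of each of 4 comparisons. One mean covers the 10 DMSO cultures of both genotypes, one the 11 AdipoRon cultures of both genotypes, one the 10 Tau cultures and one the 11 WT cultures. The DMSO and AdipoRon means share no culture, nor do the Tau and WT means, whereas each of the first pair overlaps with each of the second. The Tau mean holds 5 AdipoRon and 5 DMSO cultures, and the WT mean 6 and 5. Treatment is therefore not fully balanced between the genotype means. The AdipoRon mean likewise holds 5 Tau and 6 WT cultures, against 5 and 5 in the DMSO mean. No value of a single culture was analysed here. The means used show neither the depth of single libraries nor the spread between cultures, no test could be made, and none of the differences below can be set against replicate error. The 4 overlapping means do not fix the levels of the 4 groups, so an AdipoRon difference within 1 genotype, or a Tau difference under 1 treatment, cannot be given. Which cultures a mean covers was taken from the groups that the name of its table compares, and the labels of the WT AdipoRon cultures point in part to other tables, so the direction of each difference rests on the table names. A difference of at least 0.25 in log2 (1.19-fold) was used as a size threshold, and the share of all 19399 genes past it is given as the background.

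Voltage-gated sodium channels open when the membrane depolarizes and carry the inward current of the rising phase of the action potential. One alpha subunit forms the pore, the voltage sensors and the inactivation gate, while beta subunits, which cross the membrane once, modify gating and surface expression and act in cell adhesion. In cortical neurons the channels are concentrated at the axon initial segment, where ankyrin-G and beta-IV spectrin anchor them.

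Relative to the DMSO mean, the AdipoRon mean was lower for 7 of the 8 genes and higher for Scn4b, while it was lower for 44.5% of all genes. Scn3b was lowest, at 53.9% of its DMSO mean, followed by Scn1a at 69.6% and Scn2a at 77.2%, while Scn4b stood at 152%. Thus 3 of the 8 genes were lower by at least 0.25 in log2, against a background of 14.6% of all genes, and 1 of the 8 was higher by that size, against a background of 16.1%. The median difference of the 8 genes was -0.21 in log2 CPM, and that of all genes was 0.03. Between Tau and WT the 8 genes lay closer together, with differences from -0.02 to 0.18 in log2 CPM. None of the 8 was past 0.25 in either direction there, where the background was 11.2% of genes higher and 9.02% lower in Tau.

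**Figure D1:**
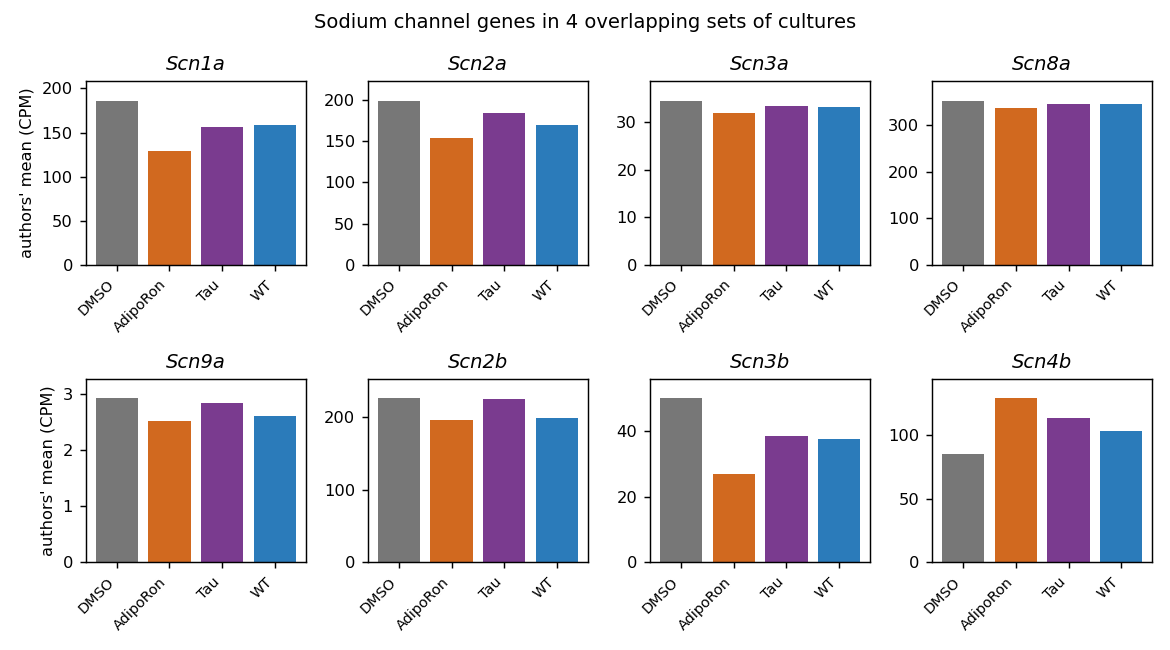
The authors' mean of each sodium channel gene in CPM (y axis, from 0, scaled for each gene) over the DMSO, AdipoRon, Tau and WT cultures, with no error bars because values per culture were not used. The AdipoRon bar is the lowest of the 4 for 7 genes and the highest for Scn4b.

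Of the pore subunits, Scn1a encodes Nav1.1, which in cortex carries much of the sodium current of parvalbumin-expressing interneurons. Its mean was 186 CPM in the DMSO cultures and 130 CPM in the AdipoRon cultures, a difference of -0.52 in log2 CPM, and 5.83% of all genes had a lower difference. In the Tau and WT cultures the mean of Scn1a was 156 and 158 CPM, a difference of -0.02 in log2 CPM. The treatment means of Scn1a thus lay apart while its genotype means nearly coincided.

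Scn2a encodes Nav1.2, the channel of the proximal axon initial segment and of dendrites of excitatory neurons. The mean of Scn2a was 199 CPM with DMSO and 154 CPM with AdipoRon, a difference of -0.37 in log2 CPM. Its Tau mean of 184 CPM lay above its WT mean of 169 CPM, by 0.12 in log2 CPM. Scn2a was therefore past the size threshold in the treatment comparison and within it in the genotype comparison.

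Scn8a encodes Nav1.6, the main channel of the distal initial segment and of nodes of Ranvier in mature neurons. The means of Scn8a, at 353 CPM with DMSO and 337 CPM with AdipoRon, were the closest of the 8 genes (-0.07 in log2 CPM). Its Tau and WT means, both 346 CPM, differed by 0.0032 in log2 CPM. Scn3a, for the Nav1.3 channel of the developing brain, was likewise near level, with 34.5 CPM in DMSO, 32.0 CPM in AdipoRon, 33.5 CPM in Tau and 33.2 CPM in WT cultures. Scn9a, for the Nav1.7 channel best known from sensory neurons, was low throughout, with 2.92 CPM in DMSO and 2.52 CPM in AdipoRon cultures (-0.22 in log2 CPM), and 2.84 CPM in Tau and 2.61 CPM in WT cultures (0.12).

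Per kilobase of the longest annotated transcript, a scale on which genes can be set side by side, Scn8a was the highest pore subunit in all 4 means, at 29.4 to 30.8 CPM per kb. Scn2a and Scn1a came next, with 21.9 and 21.4 CPM per kb in the DMSO mean and 16.9 and 14.9 in the AdipoRon mean. Scn3a followed at 3.29 to 3.55 CPM per kb and Scn9a at 0.26 to 0.30. Scn2a was above Scn1a in each of the 4 means, with 4.45 and 4.42 log2 CPM per kb in the DMSO mean and 4.22 and 4.18 in the WT mean, gaps that could not be compared with the spread over cultures.

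The make-up of the pore subunits therefore differed between the treatment means. In the DMSO mean, Scn8a made up 39.5% of the summed CPM per kb of the 5 pore genes, Scn2a 28.1% and Scn1a 27.4%. In the AdipoRon mean these shares were 45.4% for Scn8a, 26.1% for Scn2a and 23.0% for Scn1a. The sum of the 5 pore genes was 77.9 CPM per kb with DMSO and 64.7 with AdipoRon, which is 83.1% of the DMSO sum, or -0.27 in log2. For scale, the summed level of 5 neuron markers, described below, differed by -0.24 in log2 CPM. The part of neuronal RNA as a whole in the pore sum was not tested. Tau and WT sums of the pore genes were 72.2 and 70.7 CPM per kb.

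**Figure D2:**
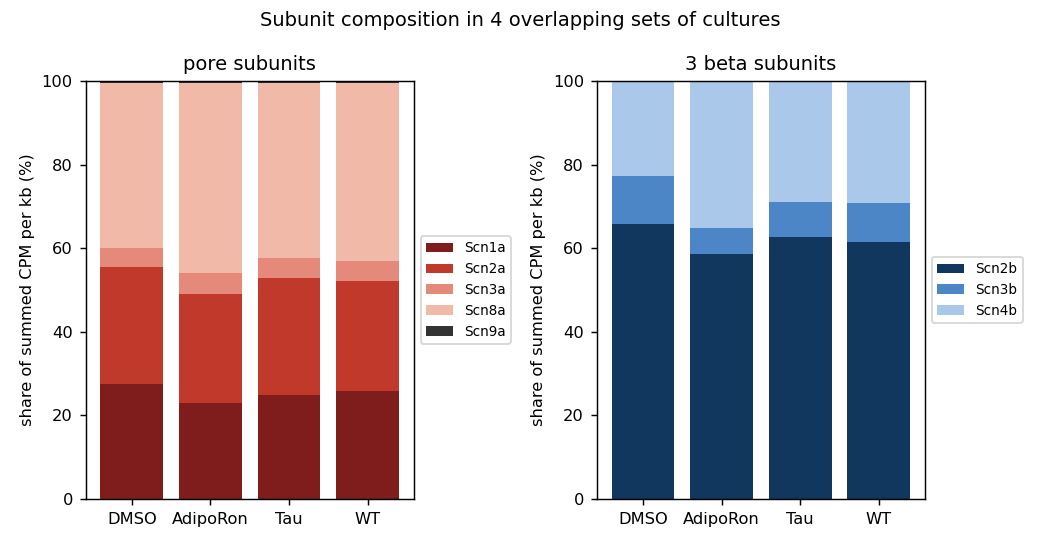
Shares (y axis, percent) of the summed CPM per kb of the longest transcript that each pore subunit gene (left) and each of the 3 beta subunit genes (right) took in the DMSO, AdipoRon, Tau and WT means. Scn8a took 39.5% of the pore sum with DMSO and 45.4% with AdipoRon, and Scn4b took 22.7% of the beta sum with DMSO and 35.1% with AdipoRon.

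The 2 widest differences among the 8 genes were both in beta subunits, and they lay in opposite directions. Scn3b encodes beta-3, which associates with the pore without a covalent bond. Its mean was 49.8 CPM with DMSO and 26.8 CPM with AdipoRon, a difference of -0.89 in log2 CPM that was undercut by 2.13% of all genes. The Tau and WT means of Scn3b were 38.5 and 37.4 CPM.

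Scn4b encodes beta-4, which is joined to the pore by a disulfide bond and whose cytoplasmic tail is linked to resurgent sodium current. The mean of Scn4b was 84.6 CPM with DMSO and 128 CPM with AdipoRon, which is 0.60 higher in log2 CPM and above the difference of 97.3% of all genes. Its Tau and WT means were 113 and 103 CPM, a difference of 0.14 in log2 CPM.

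Scn2b encodes beta-2, the other disulfide-linked beta subunit, and its gene lies next to Scn4b on chromosome 9. Its mean was 226 CPM with DMSO and 196 CPM with AdipoRon (-0.20 in log2 CPM). Scn2b had the widest genotype difference of the 8 genes, with 225 CPM in Tau and 198 CPM in WT cultures (0.18). In these means the neighbouring genes Scn2b and Scn4b thus lay on opposite sides of 0 between the treatments and on the same side between the genotypes. The side of Scn2b between the treatments depends on the scaling, since it stood at 0.0031 relative to the 5 neuron markers described below.

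A ratio of 2 genes taken within 1 mean needs no common scale between the means. The ratio of Scn4b to Scn3b in CPM, not corrected for length, was 1.70 in the DMSO mean and 4.79 in the AdipoRon mean, 2.82 times as high. In the Tau and WT means it was 2.94 and 2.75. The ratio of Scn4b to Scn2b was 0.38 with DMSO and 0.65 with AdipoRon, and that of Scn8a to Scn1a was 1.89 and 2.60.

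Per kilobase, Scn2b was the highest of all 8 genes in each mean, at 42.2 to 48.4 CPM per kb. Scn4b held rank 5 of the 8 in the DMSO mean, behind Scn2a and Scn1a, and rank 3 in the AdipoRon mean, ahead of both. Scn3b held rank 6 in all 4 means. The summed level of the 3 beta genes was 73.5 CPM per kb with DMSO and 72.0 with AdipoRon, so that the lower Scn3b and Scn2b and the higher Scn4b left a sum at 97.9% of the DMSO value.

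**Figure D3:**
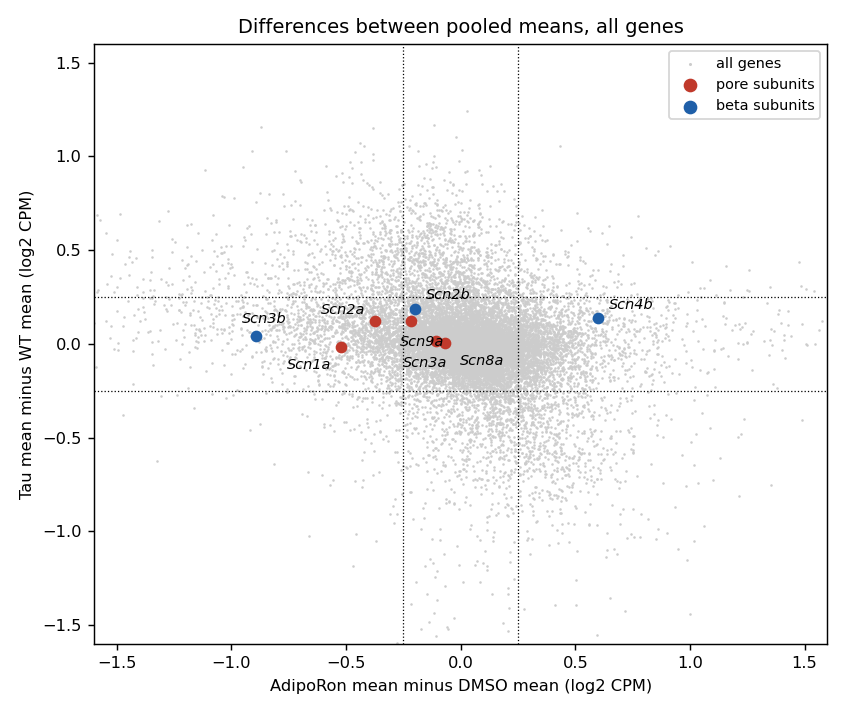
Differences between means for all genes (grey points), with the AdipoRon mean minus the DMSO mean on the x axis and the Tau mean minus the WT mean on the y axis, both in log2 CPM, and dotted lines at 0.25 in either direction. The sodium channel genes spread along the x axis, from Scn3b at -0.89 to Scn4b at 0.60, and stay within 0.25 on the y axis. The axes leave out 161 genes, none of them sodium channel genes.

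The genes sit in clusters of the mouse genome. In the RefSeq annotation of GRCm38.p6, Scn3a (chr2:65457118-65567591), Scn2a (chr2:65620764-65767447), Scn1a (chr2:66270781-66440837) and Scn9a (chr2:66480080-66635114) lie along chromosome 2. Scn3b (chr9:40269216-40291618), Scn2b (chr9:45117876-45130070) and Scn4b (chr9:45138624-45154155) lie on chromosome 9, and Scn8a (chr15:100869863-101045938) on chromosome 15. RefSeq promoter sequences were at hand for 6 of the 8 genes. The 250 bases before the transcript start are shown for Scn1a and Scn4b, the genes with the lowest and the highest AdipoRon difference among those 6, from 5′ to 3′ with CG dinucleotides in capitals.
Scn1a (chr2:66440838-66441087, minus strand): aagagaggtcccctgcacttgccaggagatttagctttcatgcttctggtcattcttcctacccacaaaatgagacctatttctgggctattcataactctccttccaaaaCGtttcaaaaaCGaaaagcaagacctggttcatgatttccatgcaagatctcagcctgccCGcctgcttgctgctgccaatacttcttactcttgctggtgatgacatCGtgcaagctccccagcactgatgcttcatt
Scn4b (chr9:45138374-45138623, plus strand): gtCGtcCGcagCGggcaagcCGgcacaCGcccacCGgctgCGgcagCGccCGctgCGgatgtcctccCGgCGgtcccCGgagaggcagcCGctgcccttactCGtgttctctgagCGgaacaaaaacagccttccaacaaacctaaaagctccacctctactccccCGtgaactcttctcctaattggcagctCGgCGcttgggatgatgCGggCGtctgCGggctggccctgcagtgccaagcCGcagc
The windows differ in composition, with 4 CG dinucleotides and 46.8% G or C for Scn1a and 23 and 66.0% for Scn4b. The median over the 32851 RefSeq promoter windows of that length was 6 CG dinucleotides and 52.4% G or C. On either strand, neither window held TGACGTCA (a cyclic AMP response element, in 1.55% of all windows), TGANTCA (an AP-1 site, in 6.75%), TTCAGCACC (the left part of the REST element RE1, in 0.30%), TATAAA (in 12.4%) or GGGCGG (a GC box, in 32.7%). This says only that these letters are absent from these windows.

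Pore subunit genes resemble each other in sequence, so reads can fit more than 1 of them. Of the windows of 50 bases along the canonical GENCODE transcript (GRCm39, step 5), 6.06% for Scn1a, 8.33% for Scn2a, 8.34% for Scn3a and 7.55% for Scn9a were also found in transcripts of other genes. For Scn8a, with 2273 windows, and Scn3b, with 871, that number was 0, and for Scn2b and Scn4b the share was 1.19% each. The methods of the study name RSEM, which apportions such reads, whereas the tables are named after Rsubread, so how they were assigned is not known.

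Of 5 other sodium channel genes, 4 had a mean in all 4 sets. With AdipoRon, 1 of those 4 was lower by at least 0.25 and 0 higher, against backgrounds of 14.6% and 16.1% of all genes. Scn10a, for the Nav1.8 channel of sensory neurons, had the lowest value, with 5.87 CPM in DMSO and 2.03 CPM in AdipoRon cultures (-1.53 in log2 CPM). Nalcn, for the sodium leak channel, differed by -0.23 in log2 CPM, Scn11a, for the Nav1.9 channel of sensory neurons, by -0.22 and Scn7a, for the sodium-sensing channel Nax, by -0.15. Between genotypes, 1 of the 4 was past 0.25: Scn11a was 0.46 higher in Tau, at a median level of only -1.70 log2 CPM. The background was 11.2% of all genes higher in Tau and 9.02% lower. Scn4a, for the skeletal muscle channel, had a mean in 2 sets, at -1.65 log2 CPM with AdipoRon and -2.22 log2 CPM in WT.

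Of the 12 genes for proteins that anchor or bind the channels, 3 were lower and 2 higher by at least 0.25 with AdipoRon. The background was 14.6% of all genes lower and 16.1% higher. The median difference of the 12 genes was -0.08 in log2 CPM. Intracellular fibroblast growth factor homologues, which bind the tail of the alpha subunit and tune inactivation, lay on both sides. Fgf12 differed by -0.80 and Fgf13 by -0.72 in log2 CPM, whereas Fgf11 differed by 0.43 and Fgf14 by -0.05. Among scaffold genes, Sptbn4 (beta-IV spectrin) was 0.39 higher, while Ank3 (ankyrin-G) differed by -0.13 and Ank2 by -0.12. Cntn1, for the adhesion protein contactin, which promotes channel expression at the surface, differed by -0.26. Nfasc (neurofascin), Nedd4l (a ubiquitin ligase), Unc80 and Unc79 (subunits of the leak channel complex) lay between -0.24 and 0.16. Between genotypes, 1 of the 12 was past the threshold, with Fgf11 at -0.25 in Tau relative to WT. The background there was 9.02% of all genes lower in Tau and 11.2% higher.

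**Figure D4:**
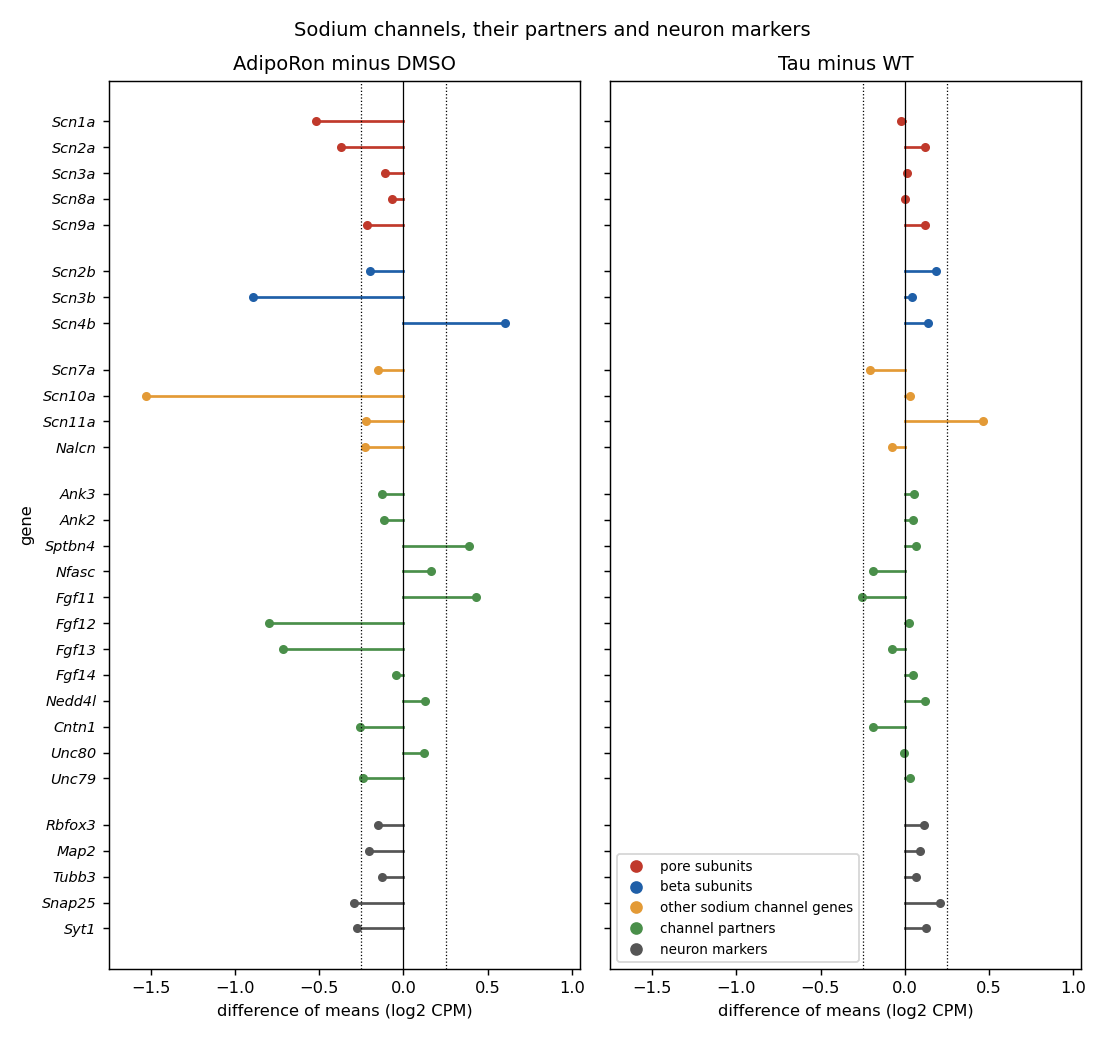
Differences between means in log2 CPM (x axis) for the pore and beta subunit genes, other sodium channel genes, genes of channel partners and 5 neuron markers (y axis), with AdipoRon minus DMSO on the left, Tau minus WT on the right and dotted lines at 0.25. Scn10a, Scn3b, Fgf12 and Fgf13 reach furthest to the left in the treatment panel and Scn4b furthest to the right.

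Markers of the cells in the cultures were read alongside. The 5 neuron markers (Rbfox3, Map2, Tubb3, Snap25 and Syt1) were all lower in the AdipoRon mean, with differences of -0.13 to -0.29 in log2 CPM and a median of -0.20, which is close to the median of the 8 channel genes. In bulk RNA, fewer neurons and less RNA per neuron cannot be told apart. Relative to the median of these 5 markers, Scn3b stood at -0.69, Scn1a at -0.32 and Scn4b at 0.80, and Scn2a at -0.17 was no longer past the threshold. Also relative to the neuron markers, Scn3a (0.09) and Scn8a (0.14) lay above 0 and Scn2b was at 0.0031, so that the count of genes below 0 depends on this scaling.

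Gfap and other astrocyte markers were present despite AraC, and their summed level was 11.76 log2 CPM with DMSO and 11.89 with AdipoRon. Interneuron markers, whose cells are a main site of Scn1a, summed to 10.20 log2 CPM with DMSO and 9.95 with AdipoRon. Of these 5 markers, 2 were lower by at least 0.25 (Vip at -2.20 and Gad1 at -0.28), against a background of 14.6% of all genes. Gad2 (-0.22) and Sst (-0.13) were lower by less, while Pvalb was 0.13 higher. The excitatory neuron markers summed to 9.30 and 9.49. Endothelial and mural markers were low, at 5.15 and 5.34, with Pecam1 between -1.02 and -0.98 log2 CPM over the 4 means and Cldn5 not listed. The part of these cell types in the sodium channel values was not tested.

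Between genotypes, the 5 neuron markers were 0.07 to 0.21 higher in Tau (median 0.11). Of the 8 channel genes, 7 were also higher (median 0.08), while 50.3% of all genes were lower in Tau. The WT mean holds 6 AdipoRon and 5 DMSO cultures and the Tau mean 5 of each. A gene lower with AdipoRon is thereby drawn slightly higher in Tau than in WT. That part of these small differences was not removed. Relative to the median of the 5 neuron markers, Scn1a (-0.13), Scn8a (-0.11), Scn3a (-0.10) and Scn3b (-0.07) lay below 0. The count of channel genes higher in Tau thus depends on the scaling too. All 6 oligodendrocyte lineage markers were lower in Tau, with a summed level of 8.90 log2 CPM in Tau and 9.61 in WT. All 5 microglia markers were also lower, at 5.62 and 6.62. The part of these markers in the genotype values was not tested. Prnp, whose promoter drives the transgene, was 0.41 higher in Tau than in WT, above 94.4% of genes, and the mouse tau gene Mapt differed by -0.03.

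Genes most like each channel gene were found by the Euclidean distance between centred log2 CPM values over the 4 means, which hold only 2 independent differences. Scn3b, which had 21 genes within a distance of 0.05, was nearest to A530058N18Rik, Gpr12 and Ildr2. Scn4b, with 51 genes within that distance, was nearest to Atp6v0d2, C230057M02Rik and Rdh12. Scn1a, with 73, was nearest to Gm52310, Zdbf2 and Cabyr, and Scn2a, with 188, to Eps15, Mamld1 and B230217O12Rik. The remaining genes had more close neighbours: 272 for Scn2b (nearest Glyctk, Prickle2 and Jag2), 370 for Scn9a (Spata9, Scai and ND4), 1324 for Scn3a (Tsr2, Dlx5 and Elmo2) and 1779 for Scn8a (Gm16835, Ttc9 and Usp34).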

How the data were processed

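Poly(A) RNA of 21 cultures was sequenced, and groups were taken from the genotype and treatment labels. According to the authors' methods, STAR aligned the reads to mm10, RSEM gave the gene levels, and groups were compared in edgeR. Elsewhere the study names GRCm39 as the genome, and Rsubread appears in the names of the deposited tables. Of these 4 tables, only the mean log2 CPM that the authors deposited for each gene was used, as their pooled value. The other columns (log2 fold change, likelihood ratio, p-value, false discovery rate and its call) are the authors' own comparisons and were not used. Library normalization and gene filters are not given in the sources used here, and the means do not show the depth of single libraries.

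The samples of each mean were taken from the table names. The labels of the WT AdipoRon samples list the DMSO and AdipoRon tables, and the labels of no sample list the WT table. As a check, the DMSO and AdipoRon means, weighted by sample number, were compared with the Tau and WT means. Over 19399 genes the log2 ratio had an SD of 0.0049, against 0.18 with the AdipoRon and WT tables exchanged. This does not tell the DMSO from the AdipoRon table, the Tau from the WT table, or one pair from the other. Differences of means were computed with Python (numpy 2.4.6, pandas 2.3.3), and the steps were tested on simulated data. Transcript lengths came from GENCODE vM39, and promoters from RefSeq. Named genes were the 8 sodium channel genes, other sodium channel genes, channel partners, cell markers, and the 3 genes most like each member. These lists and members were chosen with earlier results of these data known, and some genes of the lists are not reported here. A value was taken to have moved when it changed sign or its side of 0.25, and a level when it moved by 0.25 or more.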

Additional observations from a re-analysis of the deposited data

How the results depend on the processing

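The median difference of the 8 sodium channel genes between AdipoRon and DMSO kept its sign and stayed under 0.25 in size in each alternative (-0.24 to -0.18 with centring on all or on well expressed genes, pseudocounts of 1 or 0.1, and a filter on low genes), and was -0.0058 when centred on the 5 neuron markers, an alternative chosen after seeing the data. With that centring the median between Tau and WT was -0.033, in place of 0.08. With a threshold of 0.5, 2 of the 8 genes were lower with AdipoRon (Scn1a and Scn3b) in place of 3, and Scn4b was still higher. The share of all genes past 0.5 was not computed, so these counts have no background beside them. For scale, 5.83% of all genes had a lower difference than Scn1a (-0.52), and 97.3% had a lower one than Scn4b (0.60). The median level of the 8 genes was 7.03 log2 CPM, and 4.23 per kilobase of the longest or 4.28 per kilobase of the canonical transcript (the latter chosen after seeing the data), which divides by length. Of 96 recomputed values of single genes, 7 changed sign or their side of 0.25, all with centring on the neuron markers. The filter on low genes removed none of the 8 genes, so its values repeat the main ones and could not move. The pseudocounts were small beside the levels of all the genes but Scn9a. The number 96 therefore includes many values that could hardly change, and 7 of 96 does not measure robustness.

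Because only means over 10 or 11 cultures were used, the weight of a single culture in a difference was not tested. Leaving out replicates, fits of counts with other normalizations and any test per sample were not run. No paired analysis was possible because the means carry no value per sample, although replicate numbers recur across groups and, per the study's reporting summary, samples of 1 animal entered each treatment.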

Other observations

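Some single cell type markers differed more between the treatment means than most sodium channel genes. Neurod2, a transcription factor of excitatory neurons, was 1.51 higher in log2 CPM in the AdipoRon mean than in the DMSO mean, above 99.8% of all genes. Vip, for the neuropeptide of a class of interneurons, was lower by the widest margin of the markers read, with a difference of -2.20. Pvalb, the marker of the interneurons in which Scn1a is prominent, differed by 0.13, while Gad1 differed by -0.28. Between genotypes, Sox10 of the oligodendrocyte lineage differed by -1.64 and Tmem119 of microglia by -1.39 in Tau relative to WT. Each of these values is a difference of means without a measure of spread.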
